A study of Mus musculus with 4 samples.

Results

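Solute carriers are membrane proteins that move amino acids, ions, metals, vitamins, nucleosides, monocarboxylates and sugar conjugates across the plasma membrane, lysosomes, Golgi and mitochondria. In the brain, microglia take up glutamate, export lactate and break down engulfed material in lysosomes, and each of these steps passes through carriers. The epithelium of the choroid plexus, which makes cerebrospinal fluid, relies on a distinct set of ion and organic anion carriers, and neurons use carriers to load vesicles and to clear transmitter. The genes described here were chosen by symbol and by total count: all features whose symbol begins with Slc and a number, with at least 500 unique molecular identifiers (UMIs) summed over all barcodes. Slc2a1, Slc2a5, Slc2a6, Slc40a1, Slc11a1 and pseudogene names were left out. The rule gave 193 genes of 371 with such a symbol, among 32286 features. Just outside it were Slc25a43 with 494 UMIs, Slc35g2 with 480 and Slc35f3 with 479, and just inside were Slc36a2 with 503, Slc26a6 with 515 and Slc19a2 with 542. The set still holds some carriers of sugars, such as Slc2a3 and Slc2a8, and of iron, such as Slc11a2, Slc25a37 and Slc25a28. It also holds 3 genes named after a carrier whose products are not carriers, Slc9a3r1, Slc4a1ap and Slc7a6os.

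The mice carried Tmem119-2A-CreERT2 and the Ai6 reporter, so that Cre expressed from the Tmem119 locus marks cells with ZsGreen. All 4 groups shared this genotype: sham and stroke in females and in males, each a single pool of 4 mice. In the stroke groups the right middle cerebral artery had been ligated permanently, and sham mice had the same operation without the ligation. The hemisphere on the operated side was taken on day 3, and ZsGreen-positive live cells from it went through sorting and the 10x 3' chemistry. The age of the mice and the tamoxifen schedule were not given in the sources used here. Variation between mice was pooled away, so that p-values do not measure it. They rest on the spread between pools, which was mostly estimated across genes. Each gene had 1 residual degree of freedom beside a shared prior of 80.7.

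After quality control 18045 of 20437 barcodes remained. Although every library is labelled as microglial cells, the cells also included macrophage-like, choroid plexus-like, neuron-like, oligodendrocyte-like and neutrophil-like clusters. Microglia-like cells, in clusters where all 10 microglial markers were detected, numbered 3062 (female) and 4037 (male) in the sham pools and 3450 (female) and 3259 (male) in the stroke pools. Their median depths were 6279, 5420, 8891 and 8791 UMIs per cell in that order. The male sham barcodes started at 4198 UMIs and those of the other pools at 500 or 501. Pairs of pools shared 4 to 11 barcodes.

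The carriers together took 79.2 UMIs per 10000 in microglia-like cells of the female sham pool and 74.5 in those of the male sham pool. They took 67.2 in the female stroke pool and 65.6 in the male stroke pool, so that both stroke pools lay below both sham pools. The summed level of the 10 microglial markers was also lower in stroke, at 156 and 165 UMIs per 10000 in the female and male pools against 295 and 277 in sham, and 9 of the 10 were lower in both stroke pools. The median mitochondrial share was higher, at 4.93% and 4.57% against 2.05% and 1.19%. The part of these shifts in the carriers' values was not tested. The exact 95% Poisson interval of the female sham level, which covers counting error only, ran from 78.8 to 79.5. In the fit that followed, scaled by trimmed means (TMM), the same genes had a median log2 change of 0.006, against -0.04 over all 14228 genes tested. Scaling by library totals in place of trimmed means moved the median of all genes to -0.35 and that of the carriers to -0.30. Levels per 10000 UMIs below follow library totals, and fitted log2 changes follow the trimmed means, so that a gene with equal levels in all pools has a positive fitted change. The 3' chemistry counts 1 end of each molecule, so levels were not divided by length.

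Of the 193 genes, 185 passed the filter on low counts, and of these 44 rose after stroke, 44 fell and 97 did not pass the test (edgeR quasi-likelihood test with sex as a term, Benjamini-Hochberg adjusted p at most 0.05 over all genes). Over all genes tested 25.6% rose and 25.6% fell, 51.2% together, so the carriers' shares were close to the background. On levels per 10000 UMIs, 32 genes were higher in both stroke pools than in both sham pools, 113 were lower in both and 48 overlapped. Over all genes tested, 23.3% were higher and 58.3% lower by the same criterion. Scaling by library totals left 20 carriers that rose and gave 88 that fell, where 16.2% of all genes rose and 45.4% fell. DESeq2 called 29 rises and 27 falls, against 19.6% and 12.7% of all genes. Without the female stroke pool 21 carriers rose and 22 fell, where 16.5% and 12.1% of all genes did. Without the male stroke pool 26 rose and 25 fell, where 17.4% and 13.3% of all genes did. Across every alternative that gave a value for the gene, 14 of the 44 rises and 13 of the 44 falls were kept.

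RNA from other cells can enter a droplet. UMIs per cell in microglia-like cells were set against the lowest value among other named classes with at least 50 cells in the same pool. In the female stroke pool these were choroid plexus-like, macrophage-like and neutrophil-like cells, and in the male only the latter kinds, macrophage-like and neutrophil-like. In the female sham pool they were border-associated macrophage-like, choroid plexus-like, neuron-like and oligodendrocyte-like cells. The male sham pool had the same classes without oligodendrocyte-like cells. Such a class can express a gene itself and differs in depth, so its value does not measure background RNA alone. For 2 of the 44 rises, Slc25a24 and Slc25a20, that lowest value was above the microglial one in both stroke pools, and for 3 it was so in at least 1. For 4 of the 44 falls, Slc24a2, Slc12a5, Slc4a3 and Slc15a2, it was above the microglial value in both sham pools, and for 11 in at least 1. For these genes in those pools the measure cannot decide how much of the microglial level is RNA of other cells. The same count was not made over all called genes. Slc25a20 was named after its values were seen.

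**Figure D1:**
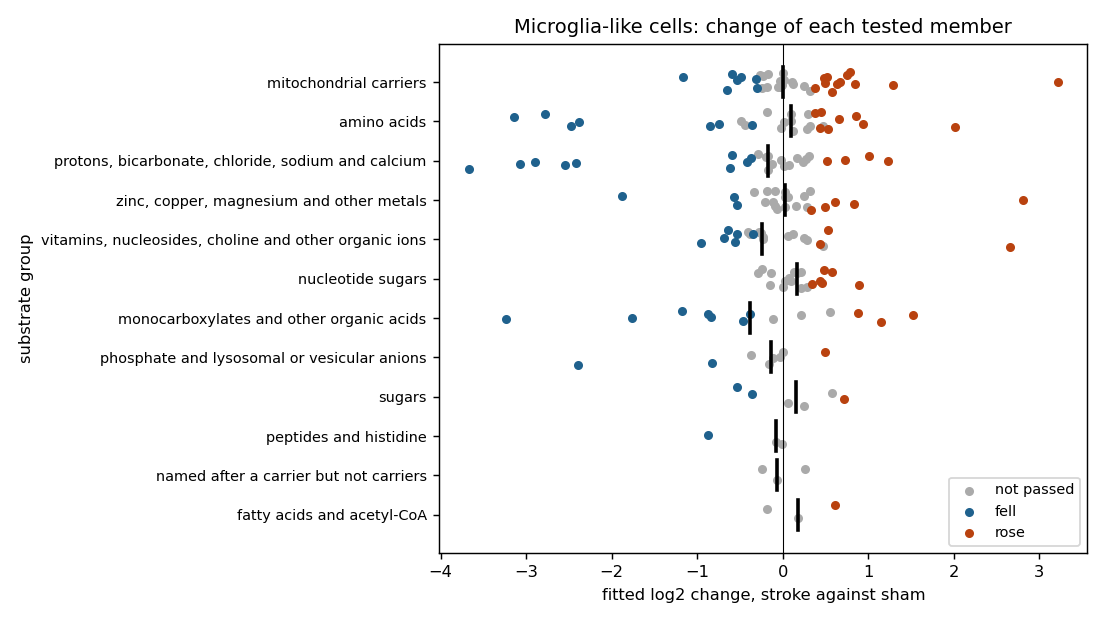
Fitted log2 change between stroke and sham in microglia-like cells (x axis) for each of the 185 genes tested, by substrate group (y axis). Points are genes, shifted vertically at random, and black bars are group medians. The nucleotide sugar group, which holds Slc35 genes by family number, had 6 rises and no fall, and the monocarboxylate group had the lowest median, -0.38. Over all genes tested 25.6% rose and 25.6% fell.

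Among the carriers of amino acids, 8 of 27 tested rose and 7 fell, with a median log2 change of 0.10. Over all genes tested 25.6% rose and 25.6% fell, and the counts of each group below stand against the same shares. Slc1a5, a sodium-dependent exchanger of neutral amino acids such as glutamine, stood at 0.0237 UMIs per 10000 in the female sham pool and 0.0309 in the male sham pool, and at 0.0958 and 0.0847 in the female and male stroke pools. Both stroke pools were above both sham pools, and the fitted log2 change was 2.02 ± 0.22 (SE, adjusted p = 3.36e-13). Slc38a6 rose by 0.94 ± 0.15 and Slc38a10 by 0.86 ± 0.14, both members of the family of sodium-coupled neutral amino acid carriers, and Slc38a10 was named after its values were seen. Slc3a2, the heavy chain that carries several exchangers to the membrane, was among the most abundant of all, at 3.10 and 2.86 UMIs per 10000 in the female and male sham pools and 3.21 and 3.09 in the stroke pools. The groups overlapped, and its fitted change of 0.38 ± 0.14 (adjusted p = 0.021) was lost with library totals. Its light chains did not pass: Slc7a5, which carries large neutral amino acids, had a change of 0.10 ± 0.14 and Slc7a8 one of 0.01 ± 0.14. Slc6a6, the taurine carrier, rose by 0.44 ± 0.14 (adjusted p = 0.0054), a call also lost with library totals. Its levels overlapped, at 1.566 and 1.34 UMIs per 10000 in the female and male sham pools and 1.675 and 1.519 in the stroke pools. Without the female or the male stroke pool the adjusted p was 0.274 or 0.214 for Slc3a2 and 0.204 or 0.0794 for Slc6a6.

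Slc1a3, the glutamate carrier also known as GLAST (chr15:8634124-8710764, minus strand), fell. Its level was 2.08 UMIs per 10000 in the female sham pool and 1.65 in the male sham pool, and 0.826 and 0.847 in the female and male stroke pools. The groups did not overlap, and the fitted log2 change was -0.85 ± 0.14 (adjusted p = 2.85e-07). Slc38a2, a carrier of small neutral amino acids, fell by 0.36 on the log2 scale with an SE of 0.14 (adjusted p = 0.023), and DESeq2 did not call it. Its adjusted p was 0.195 without the female stroke pool and 0.354 without the male. Slc7a11, the cystine and glutamate exchanger, was rare in microglia-like cells, at 0.0283 and 0.0338 UMIs per 10000 in the female and male sham pools and 0.0240 and 0.0140 in the stroke pools, and did not pass (-0.44 ± 0.29, adjusted p = 0.19). The lowest Slc7a11 UMIs per cell in another class were 200% of the microglial value in the female stroke pool and 2645% in the male. In the male pool only macrophage-like and neutrophil-like cells were compared, and both held more Slc7a11 per 10000 UMIs than microglia-like cells. Such classes can express the gene themselves, so the measure cannot decide whether its microglial stroke levels include RNA of other cells.

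Slc16a3, Slc16a10 and Slc16a1 made up the rises among 13 tested carriers of monocarboxylates and other organic acids, of which 7 fell. Slc16a3 encodes MCT4, a lactate exporter. Its level was 0.382 UMIs per 10000 in the female sham pool and 0.505 in the male sham pool, against 1.01 and 1.04 in the female and male stroke pools. The groups did not overlap, and the fitted log2 change was 1.53 ± 0.14 (adjusted p = 4.11e-16). Slc16a10, which carries aromatic amino acids, went from 0.215 and 0.177 in the female and male sham pools to 0.355 and 0.351 in the stroke pools, a change of 1.16 ± 0.14. Slc16a1, which encodes the lactate and pyruvate carrier MCT1, rose by 0.89 ± 0.16, a call that was lost in cells thinned to 3000 UMIs without those carrying cell cycle UMIs. Bsg, which encodes the chaperone that MCT1 and MCT4 need to reach the membrane, rose by 0.68 ± 0.15, and Emb, a related chaperone, by 1.17 ± 0.27. The falls included Slc16a6, at 2.22 and 2.00 UMIs per 10000 in the sham pools and 1.21 and 1.27 in the stroke pools (-0.47 ± 0.14), and Slc16a7, which encodes MCT2, at 0.390 and 0.288 against 0.148 and 0.149 (-0.88 ± 0.15, adjusted p = 5.14e-07). Without the female or the male stroke pool the adjusted p of Slc16a6 was 0.183 or 0.101. Slc16a7 was named after its values were seen.

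The bases upstream of 3 starts are shown because Slc16a3 and Slc16a1 rose together and because Slc7a11 separates macrophage-like from microglia-like cells below. They were chosen after the values and the sequences were seen. Each is the 250 bases before the start of transcription in RefSeq, build GRCm38.p6, on the strand of the gene. Capitals mark matches, on either strand, to the amino acid response letters TGATGNAA, the hypoxia response core ACGTG or the antioxidant response letters TGACNNNGC. The windows are chr3:50443614-50443863 (minus strand) for Slc7a11, chr11:120948817-120949066 (plus strand) for Slc16a3 and chr3:104638414-104638663 (plus strand) for Slc16a1.
Slc7a11: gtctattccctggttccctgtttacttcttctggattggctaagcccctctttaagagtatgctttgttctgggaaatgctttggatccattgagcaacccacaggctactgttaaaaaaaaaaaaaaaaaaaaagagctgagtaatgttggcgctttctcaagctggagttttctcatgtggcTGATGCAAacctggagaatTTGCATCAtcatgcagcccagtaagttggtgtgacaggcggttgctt
Slc16a3: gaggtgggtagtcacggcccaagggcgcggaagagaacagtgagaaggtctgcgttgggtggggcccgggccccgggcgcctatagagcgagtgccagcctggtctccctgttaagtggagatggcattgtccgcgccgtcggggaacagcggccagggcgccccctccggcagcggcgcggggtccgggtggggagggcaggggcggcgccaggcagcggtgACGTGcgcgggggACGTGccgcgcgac
Slc16a1: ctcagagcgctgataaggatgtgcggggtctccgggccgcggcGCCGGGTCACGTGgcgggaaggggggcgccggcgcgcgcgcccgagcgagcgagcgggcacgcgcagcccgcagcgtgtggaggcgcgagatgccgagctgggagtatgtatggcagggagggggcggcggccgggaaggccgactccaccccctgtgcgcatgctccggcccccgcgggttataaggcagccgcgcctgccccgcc

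Slc7a11 held 2 matches to the amino acid response letters in opposite orientations, and Slc16a3 held 2 to the hypoxia response core. In Slc16a1, a palindromic stretch matched that core 2 times, once on each strand, and overlapped a match to the antioxidant letters. RefSeq entries were found for 148 of the 193 genes. The amino acid response letters occurred in 3.38% of these and in 3.53% of all 27025 promoters, the hypoxia core in 23.6% and 16.6%, and the antioxidant letters in 17.6% and 10.1%. A match describes letters only.

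Mitochondrial carriers of the Slc25 family exchange metabolites across the inner mitochondrial membrane. Of 35 tested, 12 rose and 7 fell, with a median of 0.01. Slc25a3, the phosphate carrier needed for ATP synthesis, stood at 2.70 and 3.13 UMIs per 10000 in the female and male sham pools and at 4.29 and 4.19 in the stroke pools, and rose by 0.85 ± 0.15 (adjusted p = 1.02e-06). The adenine nucleotide translocases Slc25a5 and Slc25a4 rose by 0.58 ± 0.15 and 0.63 ± 0.14. Slc25a5 had the most UMIs in microglia-like cells of any carrier, at 3.41 and 4.10 in the sham pools and 4.63 and 4.45 in the stroke pools. Its call was lost with library totals, and its adjusted p was 0.0879 without the female stroke pool and 0.0666 without the male. Slc25a39, which carries glutathione into mitochondria, rose by 0.79 ± 0.14. Slc25a10, the dicarboxylate carrier, rose by 1.29 ± 0.17 in all cells but had a change of -0.10 in cells thinned to 3000 UMIs without those carrying cell cycle UMIs. Slc25a24, a calcium-regulated ATP-magnesium and phosphate carrier, had the largest fitted rise, 3.22 ± 0.52, from 0.00151 and 0.00209 UMIs per 10000 in the sham pools to 0.0149 and 0.0135 in the stroke pools. That rise rests on 119 UMIs in all, and the female sham level stood at the floor of 3 UMIs in a pool. The lowest Slc25a24 UMIs per cell in another class were 719% of the microglial value in the female stroke pool and 752% in the male. Such classes can express the gene themselves. The measure therefore cannot decide whether its microglial stroke levels, and any ratio to them, include RNA of other cells. Macrophage-like cells held 21.4 times its microglial level in the female stroke pool and 22.5 times in the male, and the 8 macrophage marker genes summed to 0.158 and 0.128 UMIs per 10000 in microglia-like cells of the sham pools against 0.562 and 0.514 in the stroke pools. The call was kept without cells carrying at least 2 macrophage marker UMIs. Cells with fewer stayed in, so that setting cannot decide the question either. The iron importers of mitochondria Slc25a28 and Slc25a37 fell, by 0.60 with an SE of 0.14 and by 0.31 with an SE of 0.13 on the log2 scale. The call of Slc25a37 (adjusted p = 0.0498) was lost under 11 of 15 alternatives. Without the female sham, female stroke or male stroke pool it was 0.0521, 0.376 or 0.31. Both, like Slc25a39, were named after their values were seen.

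Carriers of zinc, copper and other metals numbered 23 tested, of which 5 rose and 3 fell. Slc39a14, a plasma membrane importer of zinc, manganese and iron, had the smallest adjusted p of all carriers tested. The gene lies at chr14:70303469-70351425 on the minus strand in the GENCODE M21 annotation of GRCm38. Its level was 0.0873 and 0.0898 UMIs per 10000 in the female and male sham pools and 0.484 and 0.529 in the female and male stroke pools. The stroke pools lay far above the sham pools in both sexes, with a fitted log2 change of 2.82 ± 0.15 (adjusted p = 1.88e-28). Slc39a1, another zinc importer, rose by 0.83 ± 0.13. The copper importer Slc31a1 rose by 0.61 ± 0.14 and its relative Slc31a2 fell by 0.54 on the log2 scale with an SE of 0.13. Without the female stroke pool the adjusted p of Slc31a2 was 0.133. Slc39a7 (-0.09 ± 0.14) and Slc30a9 (-0.09 ± 0.13) did not pass, nor did the iron carrier Slc11a2 (0.07 ± 0.15). Slc31a1, Slc31a2 and Slc11a2 were named after their values were seen.

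Among carriers of vitamins, nucleosides, choline and other organic ions, 3 of 20 tested rose and 6 fell. Slc43a3, a purine nucleobase carrier at chr2:84936579-84958509 on the plus strand, went from 0.0454 and 0.0488 UMIs per 10000 in the female and male sham pools to 0.257 and 0.230 in the stroke pools. The groups were far apart, with a fitted log2 change of 2.66 ± 0.17 (adjusted p = 6.13e-24). Slc29a3, a lysosomal nucleoside carrier at chr10:60712072-60752794 on the minus strand, fell from 3.34 and 3.38 in the female and male sham pools to 1.75 and 1.63 in the stroke pools, a change of -0.69 ± 0.14 (adjusted p = 3.07e-05). Slc29a1, the plasma membrane nucleoside carrier, fell by 0.34 with an SE of 0.13, and DESeq2 did not call it. Slc44a2, a choline carrier, fell by 0.56 with an SE of 0.13, from 1.001 and 0.735 in the sham pools to 0.493 and 0.452 in the stroke pools. Without the male stroke pool the adjusted p of Slc44a2 was 0.085 and that of Slc29a1 0.363, and without the female stroke pool that of Slc29a1 was 0.221. Slc49a4 fell from 0.520 and 0.461 to 0.193 and 0.217 (-0.96 ± 0.14, adjusted p = 1.52e-08), and was named after its values were seen. Slc22a17, an organic cation carrier family member that binds lipocalin, did not pass (-0.28 ± 0.14).

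**Figure D2:**
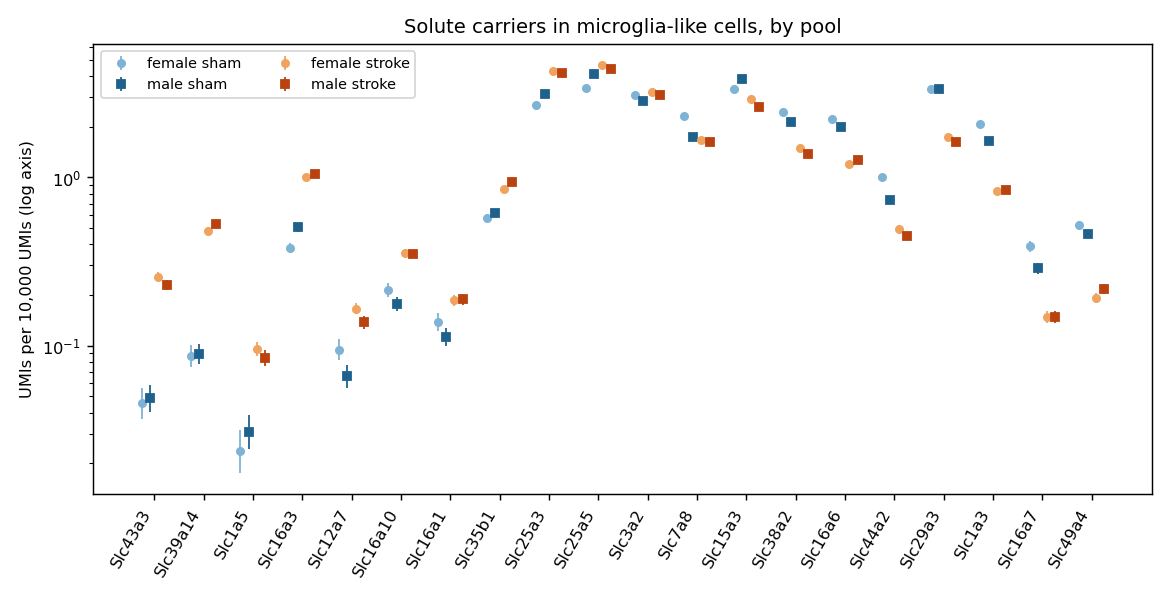
UMIs per 10000 UMIs (y axis, log scale) of 20 carriers in microglia-like cells. Circles are female and squares male pools, blue sham and orange stroke, and bars are exact 95% Poisson intervals. Slc39a14 and Slc43a3 are higher, and Slc29a3 and Slc1a3 lower, in both stroke pools than in both sham pools.

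Nucleotide sugar carriers of the Slc35 family bring activated sugars into the endoplasmic reticulum and Golgi for glycosylation. The group counted here holds Slc35 genes by family number, whatever each one carries, Slc35b1 among them. Of 19 tested, 6 rose and none fell by edgeR's adjusted p, and 1 fell at an unadjusted p under 0.05. DESeq2 called 2 rises and no fall, and with library totals 1 rose and 4 fell. Scaling by library totals turned Slc35c2 and Slc35b2, which had not passed, to -0.09 and -0.17. Slc35b1, which exchanges ATP and ADP across the endoplasmic reticulum membrane, went from 0.572 and 0.617 UMIs per 10000 in the female and male sham pools to 0.856 and 0.945 in the stroke pools (0.90 ± 0.14, adjusted p = 3.08e-08). Slc35f6 rose by 0.57 ± 0.13, a call lost with library totals, and was named after its values were seen.

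Carriers of protons, bicarbonate, chloride, sodium and calcium numbered 25 tested, of which 4 rose and 9 fell. Slc12a7, a potassium and chloride cotransporter, rose from 0.0949 and 0.0660 UMIs per 10000 in the female and male sham pools to 0.166 and 0.137 in the stroke pools (1.23 ± 0.17, adjusted p = 1.39e-09). Slc4a8, a sodium-driven bicarbonate exchanger, rose by 1.01 ± 0.39 on 141 UMIs in all, and its call was lost with DESeq2 and with library totals. Its adjusted p was 0.0678, 0.186 and 0.121 without the female sham, female stroke and male stroke pool. Slc4a7, a sodium and bicarbonate cotransporter, fell from 1.08 and 1.02 to 0.559 and 0.552 (-0.62 ± 0.13, adjusted p = 7.23e-05). Slc9a9, an endosomal sodium and proton exchanger, fell from 0.963 and 0.755 to 0.529 and 0.509 (-0.41 ± 0.13, adjusted p = 0.0072), a call lost with DESeq2. Without the female or the male stroke pool its adjusted p was 0.153 or 0.197. Slc12a2, the sodium, potassium and chloride cotransporter, had a change of -0.12 ± 0.14, Slc12a9 one of 0.17 ± 0.14 and the sodium and calcium exchanger Slc8a1 one of -0.28 ± 0.14, and none of these passed. Slc4a7 was named after its values were seen.

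The smaller groups held few calls. Slc15a3, a lysosomal carrier of peptides and histidine and one of the most abundant carriers in microglia-like cells, stood at 3.37 and 3.85 UMIs per 10000 in the female and male sham pools and at 2.93 and 2.63 in the stroke pools, with a fitted change of -0.08 ± 0.15 that did not pass. Its relative Slc15a4 had one of -0.01 ± 0.14, and Slc15a2 fell by 0.87 with an SE of 0.24. The phosphate carrier Slc20a1 rose by 0.49 ± 0.16, whereas the lysosomal sialic acid exporter Slc17a5 (-0.15 ± 0.14) and Slc37a2 (-0.02 ± 0.13) did not pass. Slc27a1, a fatty acid carrier, rose by 0.61 ± 0.17, and Slc27a4 (0.19 ± 0.16) and the acetyl-CoA carrier Slc33a1 (-0.18 ± 0.14) did not pass. Among sugar carriers, Slc50a1 fell by 0.53 with an SE of 0.14 and Slc2a8 by 0.36 with an SE of 0.14, the latter lost under 10 of 15 alternatives. Slc2a3, a neuronal type glucose carrier named after its values were seen, rose by 0.72 ± 0.21. Slc45a4 had a change of 0.25 ± 0.14. The calls of Slc2a3, Slc20a1 and Slc27a1 were lost with library totals and with DESeq2, and that of Slc15a2 with DESeq2. Of 15 alternatives, 11 kept the call of Slc2a3, 8 that of Slc20a1, 10 that of Slc27a1 and 9 that of Slc15a2. Without the female stroke pool the adjusted p was 0.298 for Slc15a2, 0.0832 for Slc20a1, 0.172 for Slc27a1, 0.0509 for Slc50a1 and 0.231 for Slc2a8. Without the male stroke pool it was 0.135 for Slc20a1, 0.0825 for Slc50a1, 0.245 for Slc2a8 and 0.0883 for Slc2a3. Slc15a2 had one of 0.0743 without the female sham pool, and Slc2a8 one of 0.288 without the male sham pool. Slc9a3r1 (0.26 ± 0.15), Slc4a1ap (-0.06 ± 0.15) and Slc7a6os (-0.24 ± 0.15), which are not carriers, did not pass.

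The largest falls with at least 50 UMIs in microglia-like cells included Slc24a2, Slc12a5, Slc4a10, Slc1a2, Slc4a4, Slc6a17, Slc4a3, Slc17a7, Slc39a12 and Slc16a9. Each of these was at least 7.61 times higher in another cell class than in microglia-like cells of the same sham pool. Slc17a7, which encodes the vesicular glutamate carrier VGLUT1, stood at 0.0343 and 0.0367 UMIs per 10000 in microglia-like cells of the female and male sham pools and at 4.91 and 3.56 in neuron-like cells, and its fitted change was -2.39 ± 0.34. Slc24a2, a sodium, calcium and potassium exchanger, fell by 3.67 with an SE of 0.35, and Slc1a2, the glutamate carrier GLT-1, by 2.78 with an SE of 0.24. The 10 neuron markers summed to 0.659 and 0.864 UMIs per 10000 in microglia-like cells of the female and male sham pools, with all 10 detected, and to 0.0621 and 0.0707 in the stroke pools, where Dcx was at 0 in both. Of these markers, 9 were lower in both stroke pools. The choroid plexus markers summed to 5.73 and 16.9 in the sham pools and 1.72 and 1.12 in the stroke pools, and the oligodendrocyte markers to 1.53 and 1.51 against 0.816 and 0.802. The 8 astrocyte markers summed to 0.0424 and 0.0885 in the sham pools and 0.0116 and 0.0335 in the stroke pools. Of these, 5 were lower in both stroke pools. The part of any of these classes in the falls was not tested. Slc4a4 had an adjusted p of 0.0592 without the female stroke pool and 0.0525 without the male sham pool.

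The 18 cell cycle genes all rose in microglia-like cells, with a median log2 change of 3.48. When cells were thinned to 3000 UMIs and those with at least 3 cell cycle UMIs were left out, 22 carriers rose and 17 fell of 176 tested, where 14.2% and 9.69% of all genes did. Among them were 17 of the 44 rises and 16 of the 44 falls seen in all cells. Slc1a5, Slc16a1, Slc1a3, Slc29a3, Slc3a2 and Slc25a5 were no longer called, whereas Slc39a14, Slc43a3, Slc16a3 and Slc25a3 were. Thinning to 3000 UMIs alone gave 30 rises and 28 falls of 178 tested, where 2413 and 2033 of 12301 genes rose and fell. It kept 26 of the 44 rises and 27 of the 44 falls seen in all cells. Of the calls just named as lost, thinning alone lost that of Slc3a2 and kept the rest. The part of dividing cells in the losses was not tested.

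Within the stroke pools the carriers differed between microglia-like clusters, which had been drawn without any gene with a solute carrier symbol. Most sham cells lay elsewhere. Cluster 1 held 2717 cells of the female sham pool and 504 of the female stroke pool, and cluster 0 held 3697 of the male sham pool and 56 of the male stroke pool. The stroke pools filled cluster 2, with 1808 female cells against 172 in female sham, and cluster 4, with 1461 male cells against 51 in male sham. The comparison of stroke with sham above is therefore mostly between cells of different clusters. Cluster 8, led by Spp1, Ch25h and Igf1, held 366 and 335 cells of the female and male stroke pools, and cluster 5, led by Top2a and Mki67, held 606 and 476. Slc1a3 was at 1.76 UMIs per 10000 in cluster 1 and 1.24 in cluster 2 of the female stroke pool, at 1.69 in cluster 4 of the male stroke pool, and at 0.256 and 0.274 in cluster 8. Slc29a3 was at 3.34, 2.21 and 2.51 in clusters 1, 2 and 4, against 0.815 and 0.740 in cluster 8. Slc16a3 ran the other way, at 0.414, 0.640 and 0.498 in those clusters against 1.71 and 1.71 in cluster 8. Slc39a14 was at 0.108, 0.323 and 0.120 against 0.672 and 0.825. Values in cluster 5 and in cluster 6, led by Ifit genes, lay between those of clusters 1, 2 and 4 and those of cluster 8 for Slc1a3 and Slc29a3 in both pools. These are descriptions within single pools, and the clusters differed in depth, with medians of 5989 UMIs per cell in cluster 1 and 16986 in cluster 8.

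**Figure D3:**
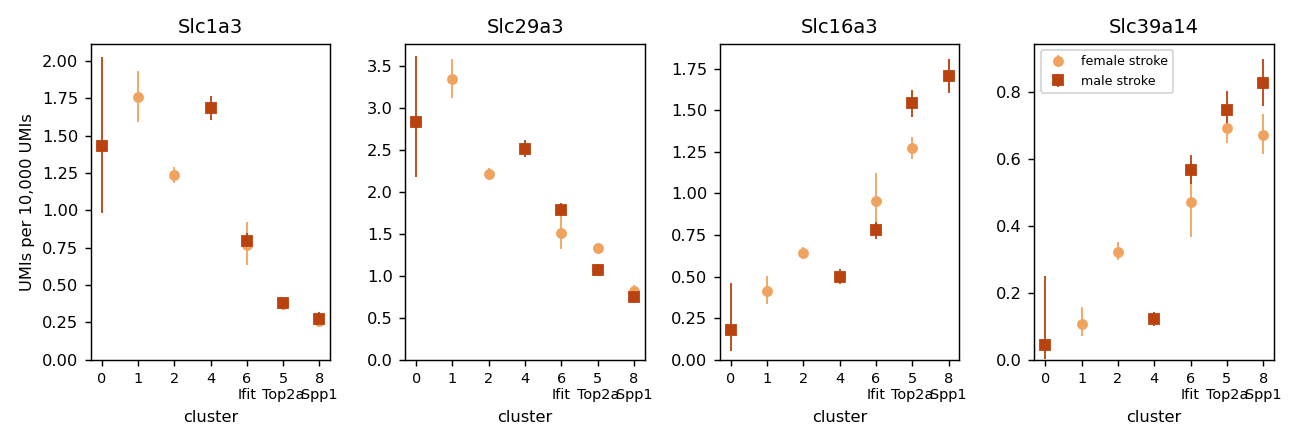
UMIs per 10000 UMIs (y axes) in microglia-like clusters (x axes) with at least 50 cells in the pool, for the female (circles) and male (squares) stroke pools, with exact 95% Poisson intervals. Slc1a3 and Slc29a3 are lowest, and Slc16a3 highest, in cluster 8.

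Macrophage-like cells, named from monocyte-derived macrophage markers, numbered 1067 in the female stroke pool and 565 in the male, and 6 and 18 in the sham pools. Carriers took 60.5 UMIs per 10000 in them in the female stroke pool and 58.4 in the male. The highest were Slc25a3 at 4.62 and 4.65, Slc25a5 at 4.04 and 3.82 and Slc3a2 at 3.13 and 3.13. Slc7a11, the exchanger whose upstream bases are printed above, was at 0.425 and 0.292. These were 17.7 and 20.9 times its levels in microglia-like cells of the same pools. Whether those microglial levels include RNA of other cells was not decided. Slc6a8, the creatine carrier, was at 0.480 and 0.468, or 12.5 and 16.9 times, and Slc27a1 at 0.622 and 0.514. Slc1a3 stood at 0.0442 and 0.0384, or 0.0535 and 0.0454 times the microglial level, and Slc12a2 at 0.0730 and 0.0517. Slc15a3 was at 2.80 and 2.45, close to its microglial level. These are single pools with no test.

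**Figure D4:**
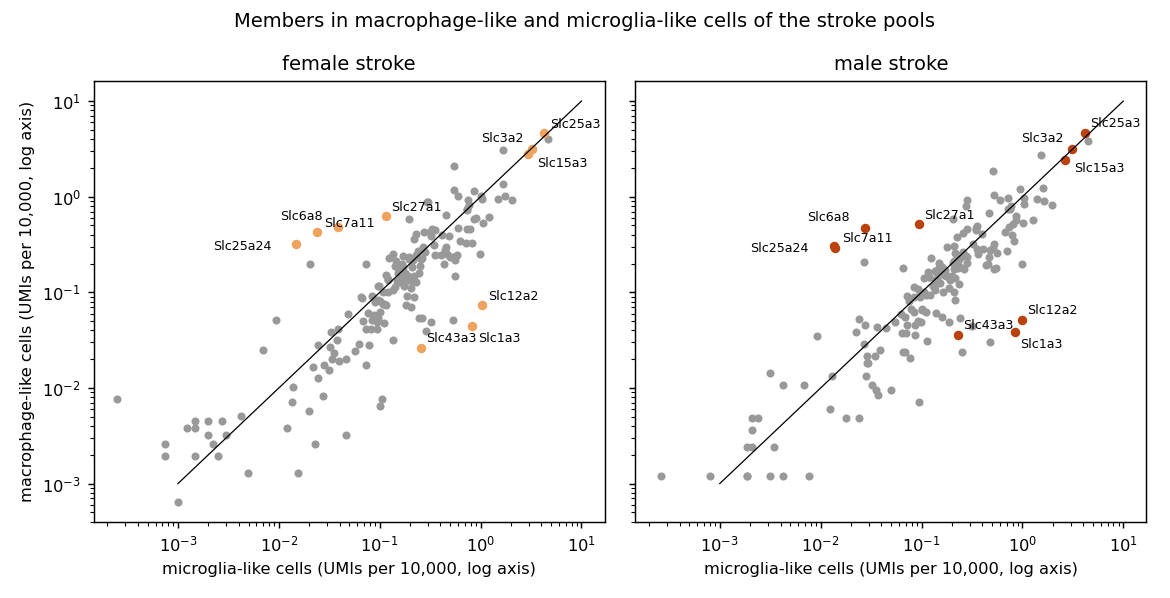
UMIs per 10000 UMIs in microglia-like cells (x axis) and macrophage-like cells (y axis) of the female and male stroke pools, both log scales. Points are carriers with at least 1 UMI in both classes, and the line marks equal levels. Slc25a24, Slc7a11 and Slc6a8 lie far above the line and Slc1a3 and Slc12a2 far below it in both pools.

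Choroid plexus-like cells numbered 111 and 538 in the female and male sham pools and 89 and 46 in the stroke pools. Their carriers summed to 85.2 and 80.5 UMIs per 10000 in the sham pools and 96.0 and 98.5 in the stroke pools. Slc22a17 was highest, at 9.53 and 9.48 in the sham pools and 10.6 and 11.1 in the stroke pools, followed by Slc25a4 at 9.34 and 8.96 and Slc25a3 at 8.73 and 9.08 in the sham pools. The lactate carrier Slc16a8 was at 1.66 and 1.57, the sulfate carrier Slc13a4 at 1.35 and 1.04 and the organic anion carrier Slc22a8 at 0.573 and 0.465 in the sham pools. In microglia-like cells of the same pools, Slc16a8 was at 0.00303 and 0.00459, Slc13a4 at 0.00252 and 0.00376 and Slc22a8 at 0.000505 and 0.00209. Slc13a4 and Slc22a8 did not pass the filter on low counts there.

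Among the other classes, the carriers with most UMIs within neuron-like cells of both sham pools together, 328 and 135 cells, were Slc22a17, at 5.80 and 2.76 per 10000, and Slc24a2, at 5.03 and 3.69. The 247 oligodendrocyte-like cells of the female sham pool had Slc24a2 at 15.7 and Slc38a2 at 12.5. Neutrophil-like cells of the female and male stroke pools, 112 and 68 cells, had Slc38a2 at 2.24 and 3.71 and Slc6a6 at 3.07 and 2.18, and Slc7a11 stood at 1.70 and 2.44 in them. Within border-associated macrophage-like cells, 54 and 110 in the sham pools, the carriers with most UMIs were Slc25a3, at 3.54 and 3.50, and Slc25a5, at 2.41 and 3.06.

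**Figure D5:**
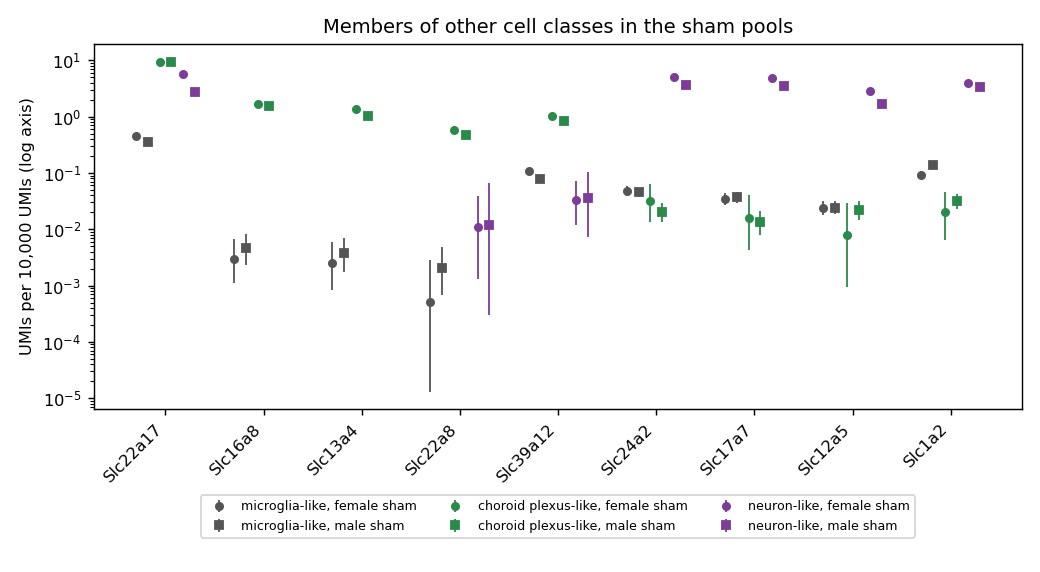
UMIs per 10000 UMIs (y axis, log scale) of 9 carriers in microglia-like, choroid plexus-like and neuron-like cells of the female (circles) and male (squares) sham pools, with exact 95% Poisson intervals. Values at 0 are not drawn. Slc16a8, Slc13a4 and Slc22a8 are highest in choroid plexus-like cells and Slc24a2, Slc17a7, Slc12a5 and Slc1a2 in neuron-like cells.

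Genes outside the set gave the following counts in microglia-like cells, where 25.6% of all genes tested rose and 25.6% fell. Of 40 tested carriers under other symbols 16 rose and 8 fell, with a median of 0.22, among them Ucp2, a mitochondrial carrier, at 1.20 ± 0.15 and Slco2b1, an organic anion carrier, at -0.53 ± 0.15. Of 10 accessory subunits 5 rose and 5 did not pass, with a median of 0.19. Of 16 amino acid response genes 7 rose and 1 fell, with a median of 0.58. The serine synthesis genes Psat1 and Phgdh rose by 2.99 ± 0.15 and 1.20 ± 0.14, and the asparagine synthetase gene Asns by 1.38 ± 0.27. Vldlr fell by 3.22 with an SE of 0.67. The other 8 did not pass, among them Atf4 (-0.12 ± 0.14) and Ddit3 (-0.31 ± 0.14). Of 10 oxidative stress response genes 5 rose and 1 fell, with a median of 0.39. The rises included Hmox1, heme oxygenase, at 2.21 ± 0.14 and Srxn1, sulfiredoxin, at 1.61 ± 0.25. Osgin1 fell by 1.39 with an SE of 0.29. The other 4 did not pass, among them Nfe2l2 (-0.21 ± 0.14). The genes named from these lists were chosen after their values were seen.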

How the data were processed

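Whole-number UMI counts per gene and barcode were taken as the authors deposited them, in 1 matrix for each of 4 pools. Cell Ranger 7.1.0 and build mm10 stand in the submitters' processing notes, but cellranger 6.1.2 per the file headers. For intronic counting nothing was given in the sources used here. Kept cells had 500 or more genes, 1000 or more UMIs and no more than 10% mitochondrial UMIs. They were clustered in scanpy 1.11.5 without any solute carrier gene (2000 variable genes, 30 components, 15 neighbours, Leiden resolution 0.8). A cluster of at least 20 cells took the name of the class other than microglia whose markers had the highest mean log2 difference from all other cells, where that was at least 1 and at least 3 of its markers were each present in 25% of the cells. Where no class reached that mean, it was microglia-like if at least 8 of 10 microglial markers were so present, their mean log2 difference was at least -1.5 and no other class had 3 markers present. Clusters with a median UMI count under 33.3% of their pools' and no marker of their class among the top 10 genes stayed unnamed, as did all that failed these rules, 5 with at least 8 microglial markers among them. These naming thresholds were set after the files were read. No doublet caller was run, so doublets remain.

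UMIs were summed over microglia-like cells per pool and fitted in edgeR 4.0.16 (R 4.3.3) with TMM factors, filterByExpr and terms for sex and treatment. This left 1 residual degree of freedom beside a prior of 80.7 shared across genes. The SE was obtained from the size of the log2 change over the root of its F statistic. Microglia-like sums held 19812860 to 40391766 UMIs per pool. DESeq2 1.42.0 and other settings were alternatives. Levels in other classes carry exact 95% Poisson intervals and no test.

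The members and gene lists were chosen with earlier results of these data known. Substrate groups follow family names. The group of genes that are not carriers was completed after the files were read. Named genes were the 12 largest rises and falls among those called with at least 50 UMIs and 1 direction in both sexes, the 3 most abundant per substrate group, the highest by level and ratio in macrophage-like and choroid plexus-like cells, the 2 highest in other classes and 12 fixed carriers. A further 14, and Slc25a20, were named after their values were seen. Results on some items are not reported here.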

Additional observations from a re-analysis of the deposited data

Results flagged for a closer look

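In 10 of the carriers named by rule, the microglia-like log2 change, scaled by trimmed means, had opposite signs in the 2 sexes. The sexes were represented by 1 sham and 1 stroke pool each, and the difference was not tested. In Slc7a11 the change was 0.09 in females and -0.96 in males, a difference of 1.04. In Slc9a3r1 it was 0.58 and -0.05, a difference of 0.632, and in Slc27a4 it was 0.44 and -0.07, a difference of 0.509. In Slc15a3 it was 0.12 and -0.28, a difference of 0.4. In Slc39a7 it was 0.05 and -0.23, a difference of 0.274, and in Slc7a5 it was 0.21 and -0.02, a difference of 0.238. The direction was the other way for Slc45a4 (-0.04 in females and 0.55 in males, a difference of -0.592), Slc15a4 (-0.29 and 0.27, a difference of -0.556), Slc7a8 (-0.15 and 0.18, a difference of -0.333) and Slc37a2 (-0.14 and 0.09, a difference of -0.236). None of these 10 passed the test of stroke against sham over both sexes.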

How the results depend on the processing

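The number of carriers that rose, 44, became 20 with library totals, 22 in thinned cells without cell cycle UMIs and 29 with DESeq2. The number that fell, 44, became 88 with library totals, 28 in cells thinned to 3000 UMIs, 17 in thinned cells without cell cycle UMIs and 27 with DESeq2. Leaving out 1 pool at a time, without the sex term, gave 21 to 55 rises and 22 to 51 falls. The cause of these shifts was not tested. The counts stayed within 1.5 times under the other settings. The level of all carriers in microglia-like cells moved beyond its counting interval when all pools were held to the UMI minimum of the male sham barcodes (78.7 for female sham, 66.7 for female stroke and 65.1 for male stroke) and with stricter quality control (69.3 and 68.1 in the female and male stroke pools).

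Some called carriers that were not named turned sign under other settings. The lowest change was -0.076 for Slc35a4, -0.062 for Slc25a13 and -0.0088 for Slc24a5, all called rises. The highest was 0.11 for Slc13a3 and 0.044 for Slc36a2, both called falls. Among the named carriers, signs turned in the following cases, most of them for genes that had not passed. With library totals the log2 change was -0.24 for Slc11a2, -0.13 for Slc12a9, -0.12 for Slc27a4, -0.17 for Slc35b2, -0.087 for Slc35c2, -0.18 for Slc43a2, -0.049 for Slc45a4, -0.018 for Slc6a8, -0.21 for Slc7a5, -0.29 for Slc7a8 and -0.040 for Slc9a3r1. In thinned cells without cell cycle UMIs it was 0.25 for Slc12a2, 0.047 for Slc15a3, 0.14 for Slc15a4, 0.081 for Slc22a17, 0.10 for Slc30a9, -0.079 for Slc6a8, -0.31 for Slc7a5 and -0.14 for Slc9a3r1, and for the called rises -0.19 for Slc20a1, -0.10 for Slc25a10 and -0.16 for Slc7a1. In cells thinned to 3000 UMIs it was -0.018 for Slc11a2, 0.0052 for Slc12a2 and -0.060 for Slc7a5. With stricter quality control it was -0.010 for Slc11a2, 0.032 for Slc15a3, 0.17 for Slc7a11 and -0.046 for Slc7a8. For Slc15a4 it was 0.025 with DESeq2, 0.023 without the low-count filter, 0.00096 without the sex term and 8.84e-05 at Leiden resolution 1.6. For Slc37a2 it was 0.0068 with DESeq2 and 0.0046 without that filter. With 1 pool left out at a time the change ran from -0.20 to 0.0043 for Slc12a2, -0.21 to 0.10 for Slc15a3, -0.18 to 0.18 for Slc15a4, -0.00084 to 0.43 for Slc27a4, -0.10 to 0.10 for Slc37a2, -0.22 to 0.085 for Slc39a7, -0.13 to 0.33 for Slc7a5, -0.12 to 0.19 for Slc7a8 and -0.0060 to 0.59 for Slc9a3r1.

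No paired analysis was possible because each group was 1 pool, apart from the sex term, which already set stroke against sham within each sex. Without that term 40 carriers rose and 43 fell. Depth limits the rarest carriers, and 3 UMIs of a pool's total is the floor of a level.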
